A study of Mus musculus with 16 samples.

Results

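Gene expression in the thyroid gland was compared between *Glis3*-Pax8Cre and wild-type mice kept on a normal diet (ND), the comparison that shows which thyroid transcripts differ without GLIS3 when iodine is supplied. The mice were taken by their labels, 4 *Glis3*-Pax8Cre(ND) and 4 WT(ND), which are 8 of the 16 libraries of the study. The other 8, 4 WT(LID) and 4 *Glis3*-Pax8Cre(LID), came from mice on a low iodine diet (LID), and they entered the same fit and served to ask whether a genotype difference depended on the diet. According to the labels all mice were C57BL/6, aged 1 month, and moved at weaning, at 3 weeks, to the NIH-31 normal diet or to the low iodine diet. The study used female mice for RNA-Seq.

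The labels list for the knockout mice the alleles Glis3<tm2Amj> and, as the source of Cre, Pax8<tm1.1(cre)Mbu> with the background B6;129, and for the controls only WT. In the knockout mice Cre recombinase is expressed from an allele of *Pax8* and removes exon 5 of a floxed *Glis3*, which encodes part of the zinc finger domain, in cells that express *Pax8*, in the thyroid the follicular cells. No Cre or floxed allele is listed for the WT mice, so the loss of GLIS3 cannot be told apart from the Cre allele at *Pax8* or from 129-derived sequence around the targeted genes. Within 10 Mb of *Glis3*, 7 of 115 genes tested (6.09%) differed by the thresholds given below, and within 10 Mb of *Pax8* 13 of 245 (5.31%), against 4.15% of all genes.

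GLIS3 is a Krüppel-like zinc finger transcription factor that binds G-rich sites and is needed for thyroid hormone production after birth. Follicular cells take up iodide through the sodium-iodide symporter NIS, couple it to tyrosines of thyroglobulin with the help of hydrogen peroxide, store the product in the follicle lumen, and later digest it in lysosomes to release thyroxine. The pituitary hormone TSH drives each of these steps through its receptor and cAMP, and its secretion rises when thyroid hormone is scarce.

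Levels are given in CPM, counts scaled by the TMM-corrected library size, for replicates 1 to 4 in that order, and log2 fold changes are *Glis3*-Pax8Cre(ND) over WT(ND) with their standard error (SE). Adjusted p-values are those of quasi-likelihood tests in edgeR, corrected by the Benjamini-Hochberg method over the 16630 genes tested. Genes with an adjusted p below 0.05 (19.6% in this comparison) are termed called, and those that passed 0.01 and also differed more than 2-fold are termed changed. Between 13892352 and 461077969 read pairs were counted per ND mouse, so that an observed 0, which leaves 3 counts possible, corresponds to at most 0.00674 to 0.188 CPM, counting error only. The knockout mice were the more thinly sequenced group at the median. *Tg*, the thyroglobulin gene, took 21.4 to 29.3% of the counts in WT(ND) and 13.5 to 18.7% in *Glis3*-Pax8Cre(ND), and it was the most abundant transcript of the labelled tissue.

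There were 2 libraries that stood apart, and results that rest on them are given with and without them. *Pax8*, which encodes a thyroid transcription factor and carries the Cre allele, was at 397, 374, 996 and 385 CPM in the WT(ND) mice and 958, 989, 944 and 643 CPM in the knockout mice. The library labelled WT(ND) replicate 3 thus lay above all knockout mice, while the other WT(ND) mice lay below them. The same library stood midway between the groups in many other genes. When genes were chosen without the mouse in question and its level was placed on a scale from 0 (mean of the other WT(ND) mice) to 1 (mean of the *Glis3*-Pax8Cre(ND) mice), the median over 987 genes was 0.50 for WT(ND) replicate 3. On 49.2% of these genes it was nearer to the knockout mean. The other 3 WT(ND) mice had medians from -0.18 to -0.01 and the 4 knockout mice from 0.84 to 0.98, as the plot of mouse positions shows.

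*Glis3*-Pax8Cre(ND) replicate 4 held thymus transcripts. Its summed level of 12 thymocyte markers was 3822 CPM, against 16.9 to 18.7 CPM in the other 3 knockout mice. WT(ND) replicates 1 and 2 held 226 and 70.0 CPM and replicates 3 and 4 15.6 and 15.9 CPM. Skeletal muscle markers also varied from mouse to mouse, from 8.45 to 490 CPM in WT(ND) and from 4.54 to 1556 CPM in the knockout. Of 15 marker lists, 5 had summed levels that did not overlap between the groups. Those of follicular cells and C cells were lower in the knockout, and those of macrophages (162 to 240 CPM in WT(ND), 274 to 326 CPM in the knockout), endothelial cells (488 to 620 and 634 to 889 CPM) and pericytes and smooth muscle (444 to 578 and 622 to 811 CPM) were higher. Each macrophage marker rose, 6 of 6, whereas 2 of 5 endothelial and 2 of 7 pericyte markers were called higher, against 10.3% of all genes. The follicular and C cell sums were nearly all *Tg* and *Calca*. Of the 10 follicular markers, 2 were called lower and 2 higher (20% each way, against 9.25% and 10.3% of all genes). Their median log2 fold change was 0.045, with 6 above 0 and 4 below. In whole glands fewer cells of a type and less RNA per cell cannot be told apart.

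**Figure D1:**
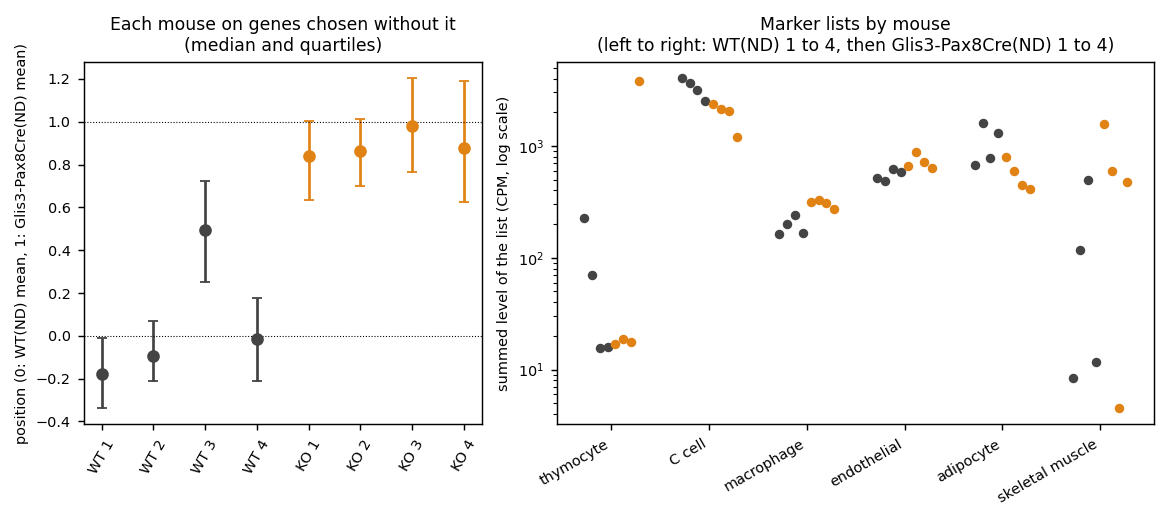
Left, each ND mouse (WT for WT(ND), KO for *Glis3*-Pax8Cre(ND)) on a scale from 0, the WT(ND) mean, to 1, the knockout mean, as the median and quartiles over genes chosen without that mouse; WT replicate 3 has its median at 0.50. Right, summed level in CPM (log scale) of 6 cell type marker lists in each mouse; the thymocyte sum of knockout replicate 4 reaches 3822 CPM and the macrophage sums of the groups do not overlap.

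*Glis3* itself (chr19:28258851-28680077 of mm10, minus strand) was at 79.2, 85.8, 81.8 and 45.2 CPM in the WT(ND) mice and 105, 93.0, 101 and 85.8 CPM in the knockout mice. The log2 fold change was 0.40 (SE 0.19, edgeR adjusted p = 0.157), so no difference was called, and the highest WT(ND) and the lowest knockout mouse met at 85.8 CPM. Counts over the whole gene, which overlaps *D930032P07Rik*, do not separate exon 5 from the rest, so they do not check the deletion. The *Pax8* difference was not called either (log2 fold change 0.72, SE 0.26, edgeR adjusted p = 0.0668), but was called without WT(ND) replicate 3 (adjusted p = 2.14e-05) and without replicate 4 of the knockout (adjusted p = 0.0409). *Nkx2-1* and *Foxe1*, the other factors that specify thyroid, had log2 fold changes of 0.067 and -0.079, with overlapping groups. Of 8 thyroid transcription factor and GLIS family genes tested, only *Glis2*, which encodes a relative of GLIS3, was called. Its level was 30.3, 28.9, 24.2 and 32.7 CPM in the WT(ND) mice and 18.6, 18.1, 15.4 and 13.8 CPM in the knockout mice, 1.77-fold lower in the knockout with no overlap.

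Loss of GLIS3 on the ND was accompanied by a lower level of 310 genes (1.86% of those tested) and a higher level of 380 (2.29%) among the changed genes, together 4.15%. All 4 knockout mice lay below all 4 WT(ND) mice in 283 of the 310, and above them in 357 of the 380. Over all genes tested, 9.96% lay without overlap below and 9.58% above. The changed genes were chosen on these same mice, so their lack of overlap is no separate evidence. The increases were the larger, with a median of 3.12-fold against 2.495-fold for the decreases, and 127 of the higher but 53 of the lower genes differed more than 4-fold. At an adjusted p under 0.05 with no limit on the fold, 1538 genes (9.25%) were lower and 1714 (10.3%) higher. Leaving out both doubted mice gave 412 lower and 593 higher changed genes, of which 262 and 331 were among the 310 and 380. Fitting the 8 ND mice alone left 59 and 94, whereas the ND mice alone without both doubted mice gave 353 and 526. Scaling by library size alone moved the split to 232 and 493, and the median log2 fold change over every gene tested from 0.021 to 0.14. List counts from such runs are given below without the share of all genes called in the same run. As the totals move between runs, a list count that moves with them is no result about the list.

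**Figure D2:**
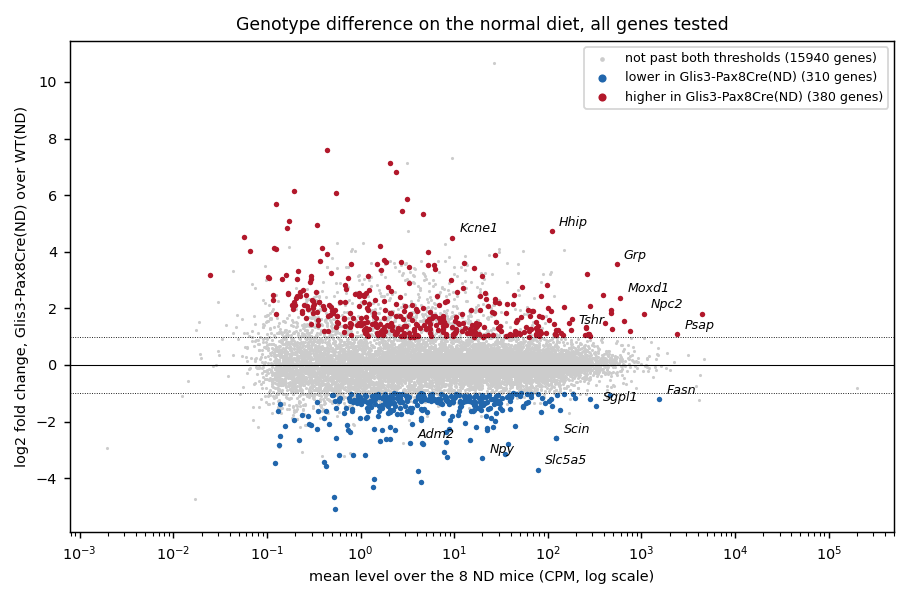
Log2 fold change of *Glis3*-Pax8Cre(ND) over WT(ND) against mean level over the 8 ND mice (CPM, log scale) for the 16630 genes tested, with the 310 lower and 380 higher changed genes coloured and dotted lines at a 2-fold change. Changed genes span the range of levels, from *Slc5a5* among the decreases to *Psap* and *Npc2* among the abundant increases.

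The largest decrease among genes of at least 5 CPM whose groups did not overlap was in *Slc5a5* (chr8:70882889-70892757), which encodes NIS. It was at 182, 187, 81.8 and 132 CPM in the WT(ND) mice and 11.0, 8.43, 9.66 and 15.8 CPM in the knockout mice. Every knockout mouse held a small part of the level of the lowest WT(ND) mouse, and the level fell 13.0-fold (log2 fold change -3.70, SE 0.25, edgeR adjusted p = 6.48e-07). *Npy* (chr6:49822710-49829505), the neuropeptide Y gene, was next, at 44.5, 45.3, 16.8 and 37.3 CPM in the WT(ND) mice and 4.33, 4.02, 3.37 and 3.02 CPM in the knockout mice, and fell 9.81-fold (edgeR adjusted p = 4.59e-05). *S100b*, which encodes a calcium-binding protein known from glia, was at 87.7, 69.2, 14.2 and 78.8 CPM in the WT(ND) mice and 8.16, 7.17, 7.54 and 5.87 CPM in the knockout mice. WT(ND) replicate 3 was the WT(ND) mouse nearest to the knockout in these 3 genes and in all 9 that follow.

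*Slc2a6*, a member of the facilitative glucose transporter family, fell 8.5004-fold, from 19.4, 15.6, 8.29 and 12.5 CPM to 1.57, 2.10, 1.33 and 1.499 CPM. It lies at chr2:27021365-27027998, inside the window around *Pax8* described above. *Il18r1*, a subunit of the interleukin 18 receptor, was at 92.3, 67.9, 27.3 and 74.9 CPM in the WT(ND) mice and 7.78, 10.9, 10.1 and 9.06 CPM in the knockout mice, a 6.91-fold decrease. *Scin*, which encodes the actin-severing protein scinderin, was at 295, 270.2, 75.5 and 207 CPM in the WT(ND) mice and 31.6, 48.9, 42.2 and 17.7 CPM in the knockout mice (6.02-fold lower). *Wisp1*, a matricellular protein gene of the CCN family, was the most even of these, at 274, 218, 141 and 198 CPM in the WT(ND) mice and 34.4, 36.9, 33.8 and 34.0 CPM in the knockout mice, and fell 5.97-fold (log2 fold change -2.58, SE 0.22, edgeR adjusted p = 4.13e-06). *Gipc2* (a PDZ domain protein), *Mboat2* (a lysophospholipid acyltransferase), *Homer2* (a scaffold protein), *Loxl4* (a lysyl oxidase family enzyme of collagen cross-linking) and *Pla2g5* (a secreted phospholipase A2) fell between 4.71-fold and 6.66-fold. *Pla2g5* overlaps *Pla2g2a* in the annotation, and counts made without regard to strand cannot assign reads of the shared part.

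On the other side stood *Hhip* (chr8:79965851-80058008), which encodes a secreted inhibitor that binds hedgehog ligands. Its level was 7.20, 4.21, 11.3 and 9.36 CPM in the WT(ND) mice and 161, 176, 247 and 264 CPM in the knockout mice. The gene rose 26.3-fold (log2 fold change 4.72, SE 0.31, edgeR adjusted p = 6.48e-07), and no mouse of either group came near the other. *Grp*, the gene for gastrin-releasing peptide, was the most abundant of the 12, at 82.3, 59.7, 111 and 87.2 CPM in the WT(ND) mice and 1070.2, 927, 1313 and 699 CPM in the knockout mice, and rose 11.8-fold (edgeR adjusted p = 6.48e-07). *Hp*, encoding the haemoglobin-binding plasma protein haptoglobin, rose 9.19-fold, from 32.0, 61.2, 63.5 and 48.5 CPM to 372, 497, 689.8 and 326 CPM.

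Several of the increases started from a level under 1 CPM in 3 WT(ND) mice. *Kcne1*, a regulatory subunit of potassium channels, was at 0.210, 0.455, 2.49 and 0.236 CPM in the WT(ND) mice and 13.7, 19.5, 22.7 and 17.4 CPM in the knockout mice. *Tnfsf11*, which encodes the cytokine RANKL, was at 0.294, 0.293, 1.75 and 0.225 CPM in the WT(ND) mice and 10.7, 6.21, 13.0 and 9.62 CPM in the knockout mice. *Slc6a4*, the serotonin transporter gene, was at 0.743, 0.822, 6.03 and 0.762 CPM in the WT(ND) mice and 13.7, 16.95, 22.8 and 12.6 CPM in the knockout mice. In each of them WT(ND) replicate 3 was several times above the other WT(ND) mice. It lay below every knockout mouse, as the choice of genes without overlap required. The fitted increases were 22.6-fold, 15.8-fold and 8.02-fold, with edgeR adjusted p = 0.000474, 0.000367 and 0.00349. Without WT(ND) replicate 3 the log2 fold changes went from 4.50, 3.98 and 3.00 to 6.00, 5.23 and 4.43, and the adjusted p-values of edgeR were 9.69e-09, 2.01e-08 and 9.69e-09. In the 8 ND mice alone the edgeR adjusted p-values were 0.0225, 0.0190 and 0.0536, so *Slc6a4* was no longer called. WT(ND) replicate 3 was also the highest of its group for *Ptgdr* (a prostaglandin D2 receptor, 14.8-fold), *Lingo1* (a membrane protein with leucine-rich repeats, 12.2-fold), *Esp8* (an exocrine gland-secreted peptide, 11.6-fold) and *Cpa4* (a metallocarboxypeptidase, 7.08-fold). Without that mouse the log2 fold changes of *Ptgdr*, *Lingo1* and *Esp8* went from 3.89, 3.61 and 3.54 to 5.58, 4.74 and 5.35. In the 8 ND mice alone *Ptgdr* and *Esp8* were not called (edgeR adjusted p = 0.0632 and 0.0567), while *Lingo1* was (0.0274). *Pmp2*, a fatty acid-binding protein of myelin, and *Dapl1* rose 11.5-fold and 10.8-fold.

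**Figure D3:**
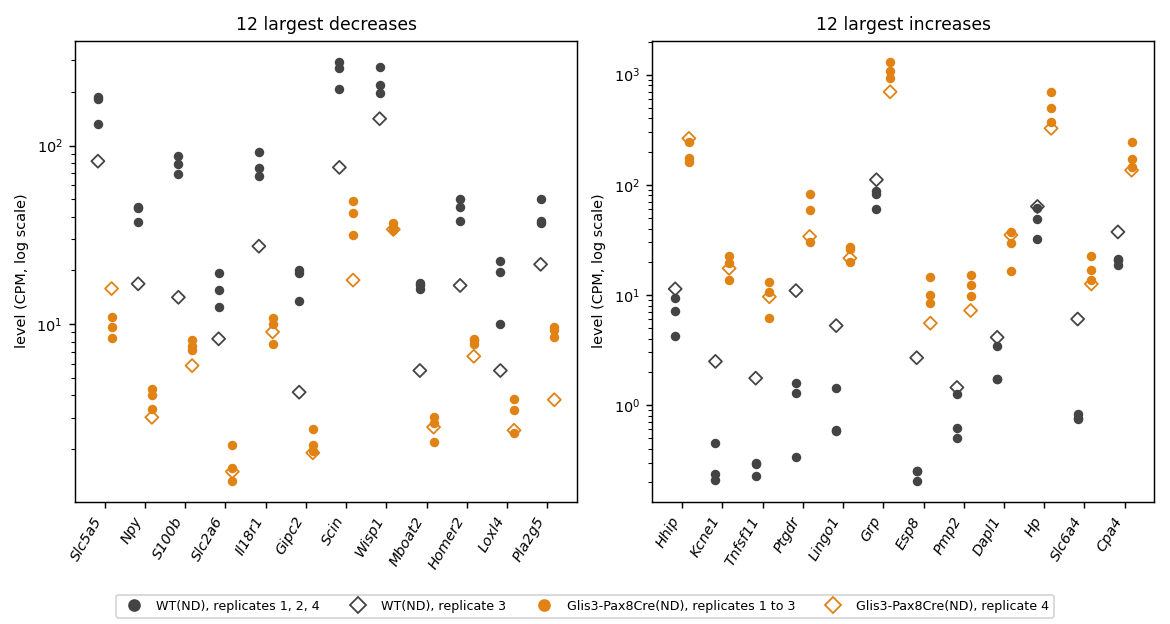
Level in CPM (log scale) of the 12 largest decreases and 12 largest increases in each ND mouse, with WT(ND) in grey, *Glis3*-Pax8Cre(ND) in orange and the doubted mice, WT(ND) replicate 3 and knockout replicate 4, as open diamonds. The 24 genes were chosen among those whose groups do not overlap. WT(ND) replicate 3 is the WT(ND) mouse nearest to the knockout in all 12 decreases.

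Genes of thyroid hormone synthesis moved in opposite directions. Of 11 genes of iodide and anion transport, 6 fell (54.5%, against 9.25% of all genes) and 0 rose. Their median log2 fold change was -0.80 against 0.021 over all genes. The number that fell was 7 without both doubted mice and 4 without knockout replicate 4 alone. Besides *Slc5a5* the 6 were *Slc26a4* (pendrin, an apical anion exchanger), *Cftr* (a chloride channel), *Kcnq1* (a potassium channel, log2 fold change -0.70), *Slc5a8* (-1.16) and *Slc5a6* (-0.39), the last 2 being relatives of NIS. *Slc26a4* was low, at 0.757, 0.484, 1.22 and 0.870 CPM in the WT(ND) mice and 0.439, 0.321, 0.469 and 0.196 CPM in the knockout mice, and fell 2.40-fold (edgeR adjusted p = 0.00678). *Cftr* fell from 13.7, 10.4, 9.17 and 17.6 CPM to 4.20, 6.22, 7.01 and 2.46 CPM (2.54-fold, edgeR adjusted p = 0.0113).

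*Tshr* (chr12:91400993-91540509), the TSH receptor gene, went the other way. It was at 89.5, 128, 156 and 45.7 CPM in the WT(ND) mice and 281, 234, 252 and 226 CPM in the knockout mice and rose 2.37-fold (edgeR adjusted p = 0.00400). *Nox4*, an oxidase that makes hydrogen peroxide, rose 1.98-fold.

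*Tg* (chr15:66670770-66850720, overlapping *Sla*) was at 303736, 200192, 226403 and 292090.0 CPM in the WT(ND) mice and 117883, 176731, 162973 and 124612 CPM in the knockout mice. It fell 1.76-fold without overlap (log2 fold change -0.81, SE 0.23, edgeR adjusted p = 0.0239). *Duox2*, which encodes the main peroxide-producing oxidase of the gland, was at 43.5, 34.9, 43.4 and 33.6 CPM in the WT(ND) mice and 24.7, 30.8, 26.8 and 18.2 CPM in the knockout mice. Its 1.54-fold decrease (edgeR adjusted p = 0.0295) was no longer called without WT(ND) replicate 3 (adjusted p = 0.0633) or knockout replicate 4 (0.0728). The gene of its maturation factor, *Duoxa2*, had a log2 fold change of 0.094 (SE 0.16) with overlapping groups, and was called higher when both doubted mice were left out (edgeR adjusted p = 0.0132). Over the 12 genes of thyroglobulin iodination and peroxide supply, 2 were called lower and 2 higher, 16.7% each way against 9.25% and 10.3% of all genes. The counts were 1 and 5 without both doubted mice.

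In thyroid hormone transport and reception 3 of 12 genes were lower (25%, against 9.25% of all genes) and 1 higher (8.33%, against 10.3%). *Thrb*, a nuclear thyroid hormone receptor, was at 13.9, 14.9, 13.0 and 14.3 CPM in the WT(ND) mice and 6.96, 7.38, 7.05 and 6.01 CPM in the knockout mice. It fell 2.05-fold (edgeR adjusted p = 0.000916) and its groups lay far apart. The higher gene was *Crym*, an intracellular thyroid hormone-binding protein, with a log2 fold change of 1.89. That list count was 3 lower and 0 higher without knockout replicate 4. In TSH receptor and cAMP signalling, 3 of 30 genes were lower and 3 higher, 10% each way and near the 9.25% and 10.3% of all genes, with 5 higher when either doubted mouse was left out. *Pde4d* (overlapping *Mir1904* and *Mir582*) rose 2.07-fold and *Pde4a* fell 1.58-fold, both of them phosphodiesterases that degrade cAMP.

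The study singles out genes for their response to the LID. Of these *Slc5a5*, *Slc26a4*, *Duox2* and *Duoxa2* are given above, and all but *Duoxa2* were called lower on the ND. Of the 9 others, 3 were lower on the ND as well (33.3%, against 9.25% of all genes). The chemokine genes *Ccl2* and *Ccl7* were higher (22.2%, against 10.3%), but not without knockout replicate 4. *Adm2* (chr15:89322720-89324730), the gene for the peptide hormone adrenomedullin 2, was at 5.84, 7.63, 1.78 and 8.43 CPM in the WT(ND) mice and 0.627, 0.775, 0.992 and 1.03 CPM in the knockout mice. It fell 6.78-fold (log2 fold change -2.76, SE 0.37, edgeR adjusted p = 0.000232), with WT(ND) replicate 3 closest to the knockout. *Sod3*, the extracellular superoxide dismutase gene, fell 1.58-fold and *Col18a1*, the gene of the endostatin precursor, 1.85-fold, with overlapping mice in both. *Cdh13*, a cadherin without a cytoplasmic domain, had a log2 fold change of -0.042 (SE 0.12), with overlapping groups. The study chose these genes on the same mice, so the count is no independent evidence of direction.

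Hedgehog pathway genes changed at several levels besides the inhibitor *Hhip*. Of 15 genes tested, 5 were higher (33.3%, against 10.3% of all genes) and 3 lower (20%, against 9.25%). The median log2 fold change was 0.016, near the 0.021 of all genes. *Gli2*, a transcription factor at the end of the pathway, was at 17.8, 29.3, 24.9 and 22.8 CPM in the WT(ND) mice and 61.0, 64.9, 67.5 and 78.5 CPM in the knockout mice and rose 2.87-fold (log2 fold change 1.52, SE 0.15, edgeR adjusted p = 1.92e-05). *Smo*, the signal transducer, and *Kif7* and *Disp1*, which act in the cilium and in ligand release, rose by 0.39, 0.58 and 0.34 on the log2 scale. *Gas1*, a ligand co-receptor, fell from 37.9, 57.4, 36.7 and 43.4 CPM to 30.9, 27.7, 21.4 and 19.9 CPM. *Gli1*, which is itself induced by hedgehog signalling, had a log2 fold change of -1.06 and was called lower. Without both doubted mice the counts were 6 higher and 3 lower.

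Peptide hormone and dense-core granule genes went both ways. Of 23, 11 fell (47.8%, against 9.25% of all genes) and 5 rose (21.7%, against 10.3%), with a median log2 fold change of -0.56. Without both doubted mice the counts were 10 and 6, and in the 8 ND mice alone 10 and 4. *Scg2*, secretogranin II, was at 762, 725, 575 and 455 CPM in the WT(ND) mice and 349, 313, 342 and 206 CPM in the knockout mice, and *Pcsk1*, which cleaves prohormones, at 67.3, 62.7, 53.8 and 45.8 CPM in the WT(ND) mice and 32.7, 28.4, 30.3 and 23.0 CPM in the knockout mice. Both fell without overlap, 2.08-fold and 2.01-fold. *Chgb*, *Scg3*, *Pcsk2*, *Pcsk1n*, *Ptprn2*, *Snap25*, *Syp* and *Cpe*, which serve granule cargo, prohormone processing and vesicle fusion, had log2 fold changes from -1.14 to -0.56. Against them *Scg5*, which encodes the chaperone 7B2 of the prohormone convertase PCSK2, was at 189, 170.0, 256 and 176 CPM in the WT(ND) mice and 771, 776, 945 and 527 CPM in the knockout mice. It rose 3.81-fold (log2 fold change 1.93, SE 0.16, edgeR adjusted p = 2.65e-06). *Ptprn*, a receptor-type phosphatase of granule membranes, rose 4.04-fold, *Pam*, which amidates peptides, by 0.97 on the log2 scale, *Cck*, the cholecystokinin gene, by 1.95 and *Cpne4*, a calcium-dependent membrane-binding protein, by 3.22.

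C cells are the calcitonin-producing neuroendocrine cells of the gland. Of 4 of their markers, 1 was called lower (25%, against 9.25% of all genes) and 2 higher (50%, against 10.3%). The lower one was *Calca*, the calcitonin gene, which was at 3884, 3513, 3027 and 2427 CPM in the WT(ND) mice and 2211, 1925, 1810.1 and 1024 CPM in the knockout mice (edgeR adjusted p = 0.0148). The sum of the 4 C cell markers was 2517 to 4020 CPM in WT(ND) and 1194 to 2389 CPM in the knockout, nearly all of it *Calca*, and knockout replicate 4 was lowest. *Ret*, another marker of the list, rose by 0.72 on the log2 scale (edgeR adjusted p = 0.00341), and *Slc18a1* by 0.31 (adjusted p = 0.0497). Of the 4 log2 fold changes 3 were above 0, with a median of 0.51. The part of C cells in the granule gene result was not tested.

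The lysosomal genes that were called rose, among them proteases that digest thyroglobulin. Of 21 lysosomal and uptake genes 6 rose (28.6%, against 10.3% of all genes) and 0 fell. Those that rose numbered 10 without knockout replicate 4 and 11 without both doubted mice. *Psap*, the precursor of the saposins that activate sphingolipid hydrolases, was at 1482, 1406, 1642 and 1649 CPM in the WT(ND) mice and 2712, 3581, 4117 and 2664 CPM in the knockout mice. *Ctsl*, the protease cathepsin L, was at 757, 705, 703 and 746 CPM in the WT(ND) mice and 1237, 1362, 1822 and 1195 CPM in the knockout mice. They rose 2.12-fold and 1.93-fold (edgeR adjusted p = 0.000129 and 9.28e-05) without overlap, and *Ctss*, *Lgmn*, *Ctsb* and *Ctsc*, which encode further lysosomal proteases, by 0.84, 0.87, 0.80 and 0.58 on the log2 scale. The macrophage markers were higher in the same mice, 6 of 6 called and their sum without overlap (162 to 240 CPM and 274 to 326 CPM), and their part in the lysosomal result was not tested. *Npc2*, a lysosomal cholesterol carrier, was among the abundant changed genes, at 397, 405, 602 and 478 CPM in the WT(ND) mice and 1469, 1737, 2269.6 and 1100.2 CPM in the knockout mice, and rose 3.49-fold (edgeR adjusted p = 2.57e-05).

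Of 14 genes known from lung epithelium, another endoderm-derived tissue that expresses *Nkx2-1*, 6 rose (42.9%, against 10.3% of all genes) and 0 fell. Over the 14, log2 fold changes ran from -2.14 to 2.76 with a median of 0.23, 7 above 0 and 7 below. No surfactant or secretoglobin gene of the list was called with all mice. Leaving out both doubted mice, 9 were called higher. *Napsa*, an aspartic protease, was at 277, 275, 472 and 281 CPM in the WT(ND) mice and 940.0, 1076, 1213 and 633 CPM in the knockout mice, a 2.96-fold rise. *Muc1*, a membrane mucin, was at 5.19, 6.00, 26.6 and 5.32 CPM in the WT(ND) mice and 31.4, 38.5, 40.4 and 24.2 CPM in the knockout mice, where WT(ND) replicate 3 lay inside the knockout range, and its log2 fold change was 1.65 with and 2.63 without that mouse. *Muc1* was not called in the 8 ND mice alone (edgeR adjusted p = 0.116). *Slc34a2*, a phosphate transporter, and *Cldn18*, a tight junction protein, rose by 2.76 and 1.41 on the log2 scale. *Lyz2*, lysozyme, rose 2.19-fold, and is also made by macrophages, whose markers were all higher as given above. *Moxd1*, a monooxygenase family gene, *Pabpc1*, the cytoplasmic poly(A)-binding protein, and *Pla2g7*, which hydrolyses platelet-activating factor, were also among the abundant increases, at 5.202-fold, 2.33-fold and 2.43-fold.

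Lipid synthesis genes were lower in 12 of 29 cases (41.4%, against 9.25% of all genes) and higher in 2 (6.9%, against 10.3%). They were lower in 14 without both doubted mice. *Fasn* (chr11:120805958-120824547), the fatty acid synthase gene and the most abundant of the lower changed genes, was at 1361, 2821, 1412 and 3057 CPM in the WT(ND) mice and 1027, 1146, 704 and 844 CPM in the knockout mice. It fell 2.32-fold (log2 fold change -1.22, SE 0.28, edgeR adjusted p = 0.00709). The summed level of 6 adipocyte markers in the same mice was 679.9, 1587, 781 and 1305 CPM in the WT(ND) mice and 799, 598, 449.5 and 408 CPM in the knockout, so the WT(ND) mice with the most *Fasn* were those with the most adipocyte transcripts. *Plin1* and *Cidec*, both lipid droplet proteins of adipocytes, were called lower, with log2 fold changes of -1.07 and -0.85. The part of fat in this result was not tested.

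*Elovl6*, an enzyme that lengthens fatty acids, fell 2.04-fold, and *Scd1*, *Acaca* and *Acly*, which act before or after *Fasn*, had log2 fold changes of -1.22, -0.89 and -0.75. *Pmvk*, *Mvk*, *Lss*, *Hmgcs1* and *Nsdhl*, which act in cholesterol synthesis, had log2 fold changes from -1.10 to -0.30 and were called lower. *Sgpl1*, which degrades sphingosine 1-phosphate, was at 608, 466, 338 and 490.5 CPM in the WT(ND) mice and 147, 198, 174 and 173 CPM in the knockout mice and fell 2.74-fold.

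Among 26 antioxidant and redox enzymes 5 fell (19.2%, against 9.25% of all genes) and 3 rose (11.5%, near the 10.3% of all genes). A total of 8 fell without WT(ND) replicate 3. *Gstm1*, a glutathione transferase, was at 154, 144, 132 and 152 CPM in the WT(ND) mice and 75.2, 66.7, 57.2 and 39.5 CPM in the knockout mice. *Nqo1*, a quinone reductase (overlapping *Mir5098*), was at 21.2, 19.0, 9.31 and 17.8 CPM in the WT(ND) mice and 5.65, 4.45, 3.68 and 5.99 CPM in the knockout mice. They fell 2.44-fold and 3.42-fold (edgeR adjusted p = 0.000101 and 0.000122) without overlap. *Prdx4*, a peroxiredoxin of the endoplasmic reticulum, rose 1.69-fold. Of 19 targets of the stress factor ATF4, 4 fell (21.1%, against 9.25% of all genes), among them *Stc2* and *Nupr1* (1.75-fold and 1.88-fold), and 0 rose. No gene of 21 in endoplasmic reticulum folding and the unfolded protein response was called by edgeR, although 3 were called higher without both doubted mice and 2 with library size alone.

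Growth factor and vascular genes changed without a common direction. *Igf1*, insulin-like growth factor 1, was at 57.4, 66.3, 181 and 50.4 CPM in the WT(ND) mice and 258, 236, 381 and 231 CPM in the knockout mice and rose 3.11-fold (edgeR adjusted p = 0.00349), with WT(ND) replicate 3 well above its group. Its log2 fold change went from 1.64 to 2.27 without that mouse. *Igf1* was not called in the 8 ND mice alone (edgeR adjusted p = 0.0520). *Tgfa*, an EGF receptor ligand, fell 1.98-fold, and *Irs1*, a docking protein of the insulin and IGF1 receptors, 1.73-fold. Over IGF and EGF signalling 6 of 31 genes were lower (19.4%, against 9.25% of all genes) and 3 higher (9.68%, near the 10.3% of all genes). There were 5 higher without WT(ND) replicate 3. *Pgf*, placental growth factor, fell 2.13-fold, whereas *Vegfc* rose by 1.01 on the log2 scale and *Kdr*, *Flt4* and *Nrp1*, receptors of VEGF ligands, by 0.44, 0.52 and 0.36. In all, 7 of 21 VEGF and angiopoietin genes rose (33.3%, against 10.3% of all genes) and 2 fell (9.52%, near the 9.25% of all genes). In the 8 ND mice alone 1 rose and 2 fell. Endothelial markers were higher in the same mice.

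Of 24 TGF-beta and BMP genes 6 rose (25%, against 10.3% of all genes) and 0 fell, and 9 rose without both doubted mice. *Grem1*, a secreted BMP antagonist, was at 5.37, 5.56, 21.5 and 3.43 CPM in the WT(ND) mice and 39.6, 45.4, 59.2 and 36.8 CPM in the knockout mice, and rose 5.07-fold (log2 fold change 2.34, and 3.26 without WT(ND) replicate 3). *Ltbp1*, which tethers latent TGF-beta to the matrix, rose 2.11-fold and *Bmp7* 1.51-fold. In Wnt signalling 3 of 30 genes fell (10%) and 2 rose (6.67%), near or below the 9.25% and 10.3% of all genes. Feedback inhibitors were called in both directions, *Rnf43* at 1.67-fold lower and *Nkd1* at 1.77-fold higher.

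Extracellular matrix genes were split. Of 43 collagen genes 7 fell and 7 rose, 16.3% each way against 9.25% and 10.3% of all genes. With library size alone 3 fell and 7 rose. *Col25a1*, a membrane-bound collagen, was at 7.13, 6.26, 30.2 and 11.97 CPM in the WT(ND) mice and 83.4, 83.9, 102 and 105 CPM in the knockout mice and rose 6.73-fold (edgeR adjusted p = 0.000478), its log2 fold change going from 2.75 to 3.47 without WT(ND) replicate 3. *Col1a1*, the main fibrillar collagen of fibroblasts, *Col4a3* and *Col4a4*, of basement membrane, and *Col11a1* were called lower, with log2 fold changes of -0.67, -0.93, -0.96 and -1.31. In 26 integrin genes 4 fell (15.4%, against 9.25% of all genes) and 2 rose (7.69%, against 10.3%), or 4 and 10 with library size alone. *Itgb6*, whose product activates latent TGF-beta, was at 21.1, 23.3, 12.5 and 15.5 CPM in the WT(ND) mice and 7.15, 9.80, 8.63 and 6.58 CPM in the knockout mice (2.24-fold lower). *Thbs1*, thrombospondin 1, fell 2.05-fold, and *Lamb3*, a laminin chain of epithelial basement membrane, 1.87-fold, while *Thbs3* rose 2.01-fold. *Igfn1*, known from skeletal muscle, *Ppp1r1b*, a phosphatase inhibitor that responds to cAMP, and *Rap1gap*, which switches off the GTPase Rap1, were lower at an appreciable level and fell 3.00-fold, 2.28-fold and 2.23-fold. *Ppp1r1b* and *Rap1gap* overlap *1700003D09Rik* and *Rap1gapos*.

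Of 27 chemokine genes 7 rose (25.9%, against 10.3% of all genes) and 3 fell (11.1%, against 9.25%). The counts were 5 and 4 without both doubted mice, where the calls of *Ccl2* and *Ccl7* were lost. The largest increases were in scarce transcripts. *Cxcl17*, a chemokine of mucosal epithelium, was at 0.0981, 0.0587, 0.141 and 0.164 CPM in the WT(ND) mice and 1.13, 1.30, 2.45 and 0.981 CPM in the knockout mice. *Ccl8*, which attracts monocytes, was at 0.154, 0.279, 0.198 and 0.328 CPM in the WT(ND) mice and 2.20, 2.95, 0.919 and 2.69 CPM in the knockout mice. The groups lay far apart for both, and the fitted increases were 11.9-fold and 8.92-fold (edgeR adjusted p = 2.22e-05 and 6.18e-05). *Cxcl13*, which attracts B cells, fell from 43.0, 39.9, 30.5 and 43.6 CPM to 21.6, 10.3, 19.1 and 15.6 CPM. Macrophage markers rose beside these genes, and their part was not tested. Of 24 interferon-induced genes 2 were called, both higher (8.33%, below the 10.3% of all genes). They were *Rsad2* and *Oasl1*, at 0.60 and 0.70 on the log2 scale, the latter not called without either doubted mouse.

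Mitosis genes rose nearly without exception, 27 of 30 against 10.3% of all genes, with a median log2 fold change of 1.58. Knockout replicate 4 was far above the other knockout mice. Summed over the 30 genes the level was 191, 202, 143 and 175 CPM in the WT(ND) mice, against 262, 302, 269.8 and 1316 CPM in the knockout mice. Without replicate 4 the groups still did not overlap, 25 of the 30 genes were called higher, and the median log2 fold change was 0.73. Without both doubted mice 21 were called higher with a median of 0.62, whereas in the 8 ND mice alone 3 were. *Cdca2*, a regulator of mitotic chromatin, was at 2.83, 3.37, 4.30 and 2.79 CPM in the WT(ND) mice and 6.96, 8.24, 9.77 and 16.9 CPM in the knockout mice. Its log2 fold change was 1.67 (SE 0.24, edgeR adjusted p = 0.000334), and 1.35 without replicate 4 of the knockout. *Cdk1*, the kinase that drives entry into mitosis, was at 5.42, 6.32, 6.20 and 6.34 CPM in the WT(ND) mice and 11.4, 11.8, 11.6 and 31.5 CPM in the knockout mice, and its log2 fold change of 1.45 became 0.94 without that mouse. *Anln*, which acts in cytokinesis, was at 8.21, 9.05, 11.3 and 9.69 CPM in the WT(ND) mice and 15.998, 19.8, 17.5 and 30.5 CPM in the knockout mice, and its value went from 1.13 to 0.91. *Ccnb1* and *Ccnb2*, the B-type cyclins that activate *Cdk1*, had log2 fold changes of 1.66 and 1.66, and of 0.66 and 0.82 without it, and *Ccnb1* was not called without WT(ND) replicate 3 (edgeR adjusted p = 0.0532). The 3 genes not called with all mice were *Cenpe*, *Cenpa* and *Kif20b*.

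S phase genes moved less. Of 26, 7 rose (26.9%, against 10.3% of all genes) and 0 fell, with a median log2 fold change of 0.65. Without knockout replicate 4 there were 6 with a median of 0.15, while in the 8 ND mice alone edgeR called 0. Their summed level was 353 to 387 CPM in WT(ND), 399 to 439 CPM in knockout replicates 1 to 3 and 1020 CPM in replicate 4. *Tyms*, thymidylate synthase, was at 9.46, 10.4, 11.2 and 10.2 CPM in the WT(ND) mice and 15.4, 12.8, 14.5 and 26.1 CPM in the knockout mice and rose 1.67-fold (edgeR adjusted p = 0.00933). The minichromosome maintenance genes *Mcm2* to *Mcm7*, of the replicative helicase, had log2 fold changes of 0.01 to 0.25 without that mouse and were not called with or without it. The thymocyte markers given above, 3822 CPM in replicate 4, moved with both lists, and in replicates 1 to 3 of the knockout those markers were no higher than 18.7 CPM.

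**Figure D4:**
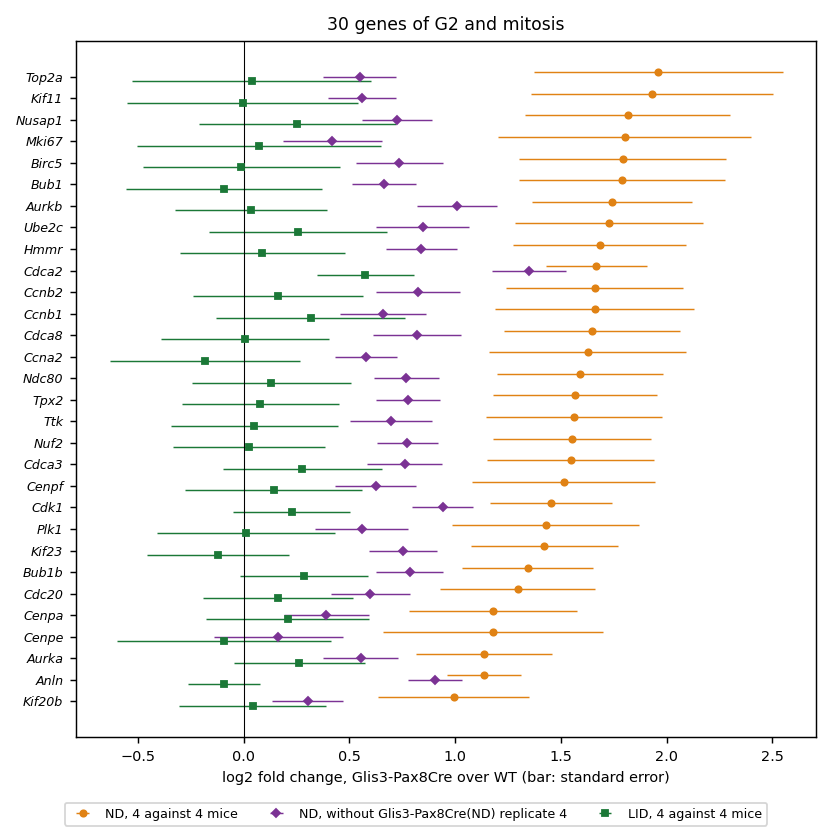
Log2 fold change of *Glis3*-Pax8Cre over WT with its standard error for 30 genes of G2 and mitosis, on the ND with all mice (orange), on the ND without knockout replicate 4 (purple) and on the LID (green). Leaving out replicate 4 lowers all 30 values on the ND, with the median going from 1.58 to 0.73, and on the LID no gene of the list was called. The interaction with diet was called in 3 of the 30 genes, against 11.8% of all genes tested.

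Promoters of the mitosis genes share sequence that the choice of the list did not use. The 250 bases before the RefSeq start, on the GRCm38.p6 build that corresponds to mm10, were found for 12991 of the 16630 genes tested and for 26 of the 30. Both strands were searched for CCAAT, the box bound by NF-Y, and for TTTGAA, the cell cycle homology region bound by repressor complexes that silence mitosis genes outside G2. CCAAT stood in 20 of 26 (76.9%) against 35.8% of all promoters, and both motifs together in 7 (26.9%) against 4.30%. The S phase genes, which moved less, held CCAAT nearly as often, in 16 of 22 promoters (72.7%), and both motifs in 3 (13.6%). CCAAT is thus not particular to the list that rose. Among the 310 lower and 380 higher genes CCAAT was found in 34.6% and 34.7% of the promoters available. The promoters of *Ccnb1*, *Ccnb2* and *Cdk1* are shown because they belong to the core of the mitotic kinase, in lower case with matches of either motif on either strand in capitals, and end at the base before the start, at chr13:100786487-100786736 (minus strand), chr9:70421555-70421804 (minus strand) and chr10:69352913-69353162 (minus strand).
*Ccnb1*: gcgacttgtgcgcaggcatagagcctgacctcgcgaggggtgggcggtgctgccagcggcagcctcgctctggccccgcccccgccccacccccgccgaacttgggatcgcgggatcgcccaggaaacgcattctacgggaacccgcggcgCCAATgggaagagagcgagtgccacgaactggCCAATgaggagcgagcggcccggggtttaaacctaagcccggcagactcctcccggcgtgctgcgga
*Ccnb2*: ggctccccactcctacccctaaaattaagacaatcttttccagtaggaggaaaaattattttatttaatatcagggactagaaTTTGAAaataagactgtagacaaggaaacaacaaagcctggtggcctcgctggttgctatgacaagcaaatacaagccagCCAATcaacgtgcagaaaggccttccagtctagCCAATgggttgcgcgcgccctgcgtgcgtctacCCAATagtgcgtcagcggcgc
*Cdk1*: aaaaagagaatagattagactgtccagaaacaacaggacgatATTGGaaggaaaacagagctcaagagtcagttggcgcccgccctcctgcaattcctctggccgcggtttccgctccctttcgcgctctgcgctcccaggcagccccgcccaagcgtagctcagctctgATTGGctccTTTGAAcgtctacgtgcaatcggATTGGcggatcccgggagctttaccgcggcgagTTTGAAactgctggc

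A G-rich sequence known as the core of GLIS binding sites, TGGGGGGT, was searched in the same way. It was in the promoters of 1.42% of all genes, of 3 of 237 lower genes (1.27%) and of 9 of 294 higher genes (3.06%). None of the 9 promoters available from the iodide and anion transport list held these letters. Of the genes named here 2 held it, *Loxl4*, which fell from 22.7, 19.7, 5.51 and 9.99 CPM to 3.83, 2.48, 3.32 and 2.55 CPM, and *Thbs3*, which was at 51.1, 42.0, 84.6 and 34.3 CPM in the WT(ND) mice and 100.3, 121, 132 and 72.1 CPM in the knockout mice and rose. Their promoters, at chr19:42612807-42613056 (minus strand) and chr3:89214930-89215179 (plus strand), are shown with the match in capitals. A match is a description of the sequence and not a measured site, and only the 250 bases were read.
*Loxl4*: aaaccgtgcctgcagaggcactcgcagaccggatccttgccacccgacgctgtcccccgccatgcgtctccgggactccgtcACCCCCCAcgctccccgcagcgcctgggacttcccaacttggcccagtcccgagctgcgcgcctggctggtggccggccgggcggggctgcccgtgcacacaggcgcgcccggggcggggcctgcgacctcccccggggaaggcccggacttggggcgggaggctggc
*Thbs3*: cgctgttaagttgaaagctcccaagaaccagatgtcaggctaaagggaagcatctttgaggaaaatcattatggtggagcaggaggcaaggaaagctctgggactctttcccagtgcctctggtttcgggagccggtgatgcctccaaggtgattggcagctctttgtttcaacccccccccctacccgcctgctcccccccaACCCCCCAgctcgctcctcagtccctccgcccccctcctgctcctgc

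Whether the genotype difference depended on the diet was tested by the interaction term over all 16 mice. Of the 310 genes lower on the ND, 187 were also called lower on the LID (60.3%, background 15.4%), 7 were called higher and 116 were not called. Of the 380 genes higher on the ND, 238 were called higher on the LID (62.6%, background 14.9%), 14 lower and 128 not. The interaction was called at an adjusted p under 0.05 in 70 of the 310 and 122 of the 380, together 192, against 11.8% of all genes tested. The difference on the LID was smaller or opposite in 56 of the 70 and 110 of the 122, and larger in the other 14 and 12. A choice of genes by their difference on the ND favours smaller values on the LID.

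*Slc5a5* belonged to the minority with a larger difference on the LID. Its mean ± SD (n = 4) was 146 ± 49.4 CPM in WT(ND) and 11.2 ± 3.25 CPM in *Glis3*-Pax8Cre(ND), and 2029 ± 137 and 16.7 ± 2.32 CPM in the LID groups. The interaction was -3.22 on the log2 scale (SE 0.33, edgeR adjusted p = 1.86e-05). *Ptprn* was at 39.7 ± 10.4 and 160.2 ± 116 CPM on the ND and 91.4 ± 27.2 and 4453 ± 300.1 CPM on the LID, with an interaction of 3.59 (edgeR adjusted p = 0.000736).

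*Npc2*, *Grp*, *Dapl1* and *Cpa4* belonged to the majority. Their log2 fold changes were 1.80, 3.56, 3.44 and 2.82 on the ND and 0.68, 2.38, 1.33 and 1.42 on the LID. *Kcne1* was at 0.847 ± 1.10 and 18.3 ± 3.75 CPM on the ND and 13.3 ± 1.81 and 32.2 ± 6.59 CPM on the LID (interaction -3.22, edgeR adjusted p = 0.0197). *Anln*, of the mitosis list, had a log2 fold change of -0.093 on the LID (interaction adjusted p = 0.00409 by edgeR, knockout replicate 4 included). Of the 30 genes of that list the interaction was called in 3, against 11.8% of all genes tested.

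The groups crossed over in a few genes. *Megf6*, which encodes a protein with EGF-like domains, was at 6.32 ± 0.839 and 24.2 ± 2.37 CPM on the ND and 42.4 ± 5.94 and 26.6 ± 9.60 CPM on the LID, where it was lower in the knockout (log2 fold change -0.67, edgeR adjusted p = 0.0162). *Spon1*, encoding the matrix protein F-spondin, was at 29.3 ± 12.8 and 9.71 ± 2.89 CPM on the ND and 12.3 ± 3.02 and 50.5 ± 14.4 CPM on the LID, where it was higher in the knockout (log2 fold change 2.04). Its ND groups overlapped, since WT(ND) replicate 3 held 10.1 CPM. *Slc24a3*, a sodium, calcium and potassium exchanger (overlapping *Gm14092*), was at 42.5 ± 16.3 and 13.0 ± 3.25 CPM and at 11.3 ± 0.831 and 28.8 ± 4.02 CPM, with a difference of -1.70 on the ND and 1.35 on the LID. *Aim2*, a cytosolic DNA sensor, was called higher on the ND (1.42) and lower on the LID (-1.41). *Elovl6* was called lower on the ND and higher on the LID (0.58, edgeR adjusted p = 0.0272), and *Fasn* was called on the ND but not on the LID (0.17, edgeR adjusted p = 0.689), with an interaction adjusted p of 0.0303.

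**Figure D5:**
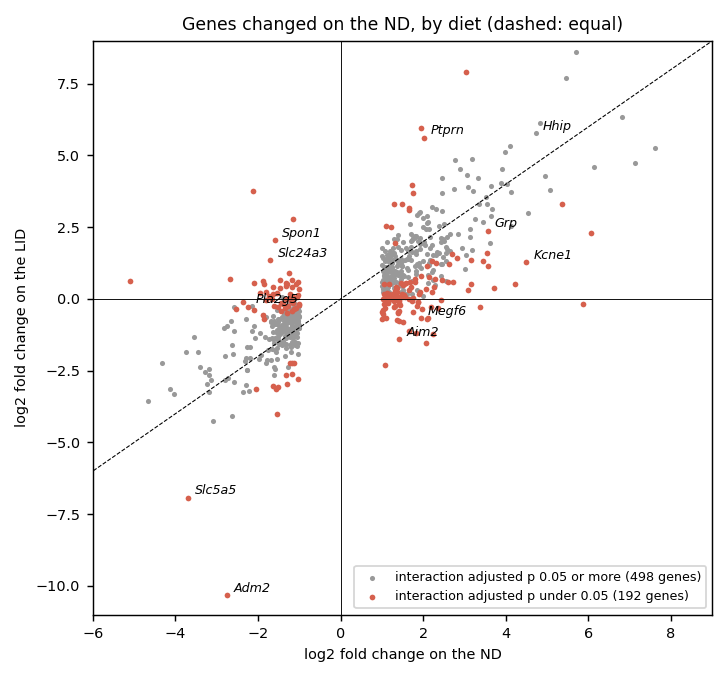
Log2 fold change of *Glis3*-Pax8Cre over WT on the LID against that on the ND for the 690 genes changed on the ND, with the 192 genes of a called interaction in red and a dashed line where both are equal. *Slc5a5* and *Adm2* lie far below the line on the left, and *Spon1* and *Slc24a3* lie above 0 on the LID although they fell on the ND.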

How the data were processed

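RNA-Seq libraries of thyroid glands from 16 mice, 4 per group, were analysed at the level of genes, and each library is a separate mouse by its label. The authors mapped read pairs to mm10 with STAR 2.5 and counted them per RefSeq gene with featureCounts 1.5.0-p1 without regard to strand, and the deposited values are raw counts, not normalized, for 25611 entries. The instrument of each library is not given in the sources used here, so no such batch could be examined.

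Counts were fitted in R 4.3.3 with edgeR 4.0.16 (filterByExpr on the 4 groups, TMM, glmQLFit with robust dispersion, glmQLFTest, Benjamini-Hochberg adjustment). All 16 mice entered 1 fit with a mean per group and no covariate, so the spread is shared with the LID groups. The thresholds for changed genes are those the study states. Standard errors were derived as the fold change on the log2 scale divided by the square root of F. On simulated data of the ND comparison over the 16630 genes, 90 of 100 genes with a 4-fold and 61 of 100 with a 2-fold change were recovered, with 6 false calls (DESeq2 91 and 67, with 36). The simulated counts held no library that stood apart, so these numbers do not cover the effect of the doubted mice.

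Named genes are, among changed genes, the 12 largest per direction with groups that do not overlap and a mean of at least 5 CPM, the 8 most abundant per direction, the 5 largest interactions per direction at 5 CPM or more (names of predicted genes left out of the first 2 parts), 3 called members per list by smallest p, and genes the study names. Some genes that the rule takes are not reported here. Members and values outside this rule that illustrate a list were chosen after their values were seen, as were the motifs. The members, lists and tests were chosen with earlier results of these data known. Counts per list are descriptions without a set test. Those from alternative runs are not set against the share of all genes called in the same run. Alternatives were DESeq2 1.42.0, RLE or library size scaling, *Tg* left out, other filters and thresholds, the replicate number as a block, the ND mice alone and each mouse left out, as well as the ND mice alone without either doubted mouse, which was chosen after seeing the data.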

Additional observations from a re-analysis of the deposited data

Results flagged for a closer look

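The genotype difference of 42 named genes depended on the diet by edgeR's interaction test (adjusted p under 0.05), which called 11.8% of all genes tested. Among the 42, 5 per direction had been named because their interaction was called, so the number is no independent count. The value given for each is the difference on the LID minus that on the ND, on the log2 scale. It was negative for *Adm2* (-7.57), *Kcne1* (-3.22), *Slc5a5* (-3.22), *Cdh13* (-3.06), *Aim2* (-2.83), *Megf6* (-2.61), *Emid1* (-2.45), *Cxcl17* (-2.44), *Dapl1* (-2.10), *Sod3* (-2.08), *Ccl8* (-1.81), *Ppp1r1b* (-1.42), *Duoxa2* (-1.41), *Cpa4* (-1.40), *Ccne2* (-1.39), *Dusp1* (-1.27), *Anln* (-1.23), *Calcrl* (-1.22), *Grp* (-1.18), *Oasl1* (-1.13), *Npc2* (-1.12), *Cdca2* (-1.09), *Gli2* (-0.99), *Chaf1b* (-0.96), *Lyz2* (-0.92), *Duox2* (-0.92), *Klf4* (-0.82), *Nkd1* (-0.70) and *Wnt4* (-0.52). It was positive for *Spon1* (3.63), *Ptprn* (3.59), *Slc24a3* (3.05), *Pla2g5* (1.97), *Nat8l* (1.87), *Elovl6* (1.61), *Fasn* (1.39), *Stc2* (1.37), *Itgb6* (1.20), *Pcsk1* (0.81), *Psat1* (0.81), *Gstm1* (0.79) and *Rora* (0.61).

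In 28 groups of 4 mice 1 mouse lay apart from the other 3 by Dixon's 95% criterion for the gap to the nearest mouse over the range, which chance gives in about 1 of 20 groups. WT(ND) replicate 3 was that mouse most often. It was highest for *Pax8* (996 CPM), *Napsa* (472 CPM), *Igf1* (181 CPM), *Cpa4* (37.3 CPM), *Muc1* (26.6 CPM), *Emid1* (22.0 CPM), *Grem1* (21.5 CPM), *Ptgdr* (10.9 CPM), *Slc6a4* (6.03 CPM), *Esp8* (2.68 CPM), *Kcne1* (2.49 CPM) and *Tnfsf11* (1.75 CPM), and lowest for *Pgf* (27.0 CPM), *Cdk6* (21.5 CPM), *Spon1* (10.1 CPM) and *Mboat2* (5.51 CPM). In each of these it lay on the side of the knockout group.

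*Glis3*-Pax8Cre(ND) replicate 4 was highest for *Cdk6* (36.0 CPM), *Cdk1* (31.5 CPM), *Ccnb2* (29.6 CPM) and *Ccnb1* (28.1 CPM), and lowest for *Pax8* (643 CPM), *Tgfa* (15.8 CPM), *Nupr1* (14.3 CPM), *Pgf* (13.0 CPM) and *Slc24a3* (8.21 CPM). The remaining mice apart from their group were WT(ND) replicate 4 for *Glis3* (45.2 CPM), WT(ND) replicate 1 for *Cdk1* (5.42 CPM) and knockout replicate 2 for *Rnf43* (17.03 CPM).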

How the results depend on the processing

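Counts of changed genes moved with the estimate of the spread, with the threshold and with single mice. Against 310 lower and 380 higher, the 8 ND mice alone gave 59 and 94, and these mice with the replicate number as a block 20 and 45. The ND mice alone gave 60 and 140 without knockout replicate 4, and 229 and 356 without WT(ND) replicate 3. Without both doubted mice they gave 353 and 526. An adjusted p under 0.05 gave 1538 and 1714 (461 and 637 with a fold over 2). Higher genes numbered 592 with DESeq2 and 593 without both doubted mice. Leaving out 1 ND mouse gave 203 (without WT(ND) replicate 1) to 432 (without WT(ND) replicate 3) lower and 251 (without WT(ND) replicate 4) to 555 (without WT(ND) replicate 3) higher genes. The block over all 16 mice gave 291 and 367, and deviations of same-numbered ND mice correlated from -0.42 to 0.02, so the numbers were not read as pairs. The 192 genes with a called interaction ranged from 149 to 243 when 1 mouse was left out. Of 116 named genes called, 65 kept the call in every alternative run, 51 lost it in at least 1, and none turned its direction.

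Directions turned only in genes not called. *Cdh13* (-0.042) was at 0.076 with library size alone, 0.029 without both doubted mice, and 0.045 and 0.039 in the ND mice alone without knockout replicate 4 and without both. *Foxe1* (-0.079) was at 0.030, 0.24, 0.13 and 0.25 in the same order, and at 0.062 in the ND mice alone without WT(ND) replicate 3. With 1 ND mouse or both doubted mice left out, the log2 fold change ranged from -0.14 to 0.038 for *Cdh13* (0.038 without knockout replicate 4), from -0.22 to 0.24 for *Foxe1*, from -0.054 to 0.28 for *Nkx2-1* and from -0.029 to 0.41 for *Duoxa2*. Depth limits the scarce genes most, since in the most thinly sequenced mouse 3 counts are 0.188 CPM.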

Other observations

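Some regulators outside the groups described above also differed on the ND. *Nfil3*, a transcription factor that opposes the clock output factor DBP, was at 1.37, 1.98, 2.56 and 1.49 CPM in the WT(ND) mice and 8.53, 4.65, 13.3 and 3.57 CPM in the knockout mice. It rose 4.06-fold without overlap (edgeR's quasi-likelihood test, adjusted p = 0.00773), and *Rora*, which encodes an activator of *Bmal1*, fell by 0.55 on the log2 scale. They were the 2 called among 19 circadian clock genes, 5.26% each way and below the 9.25% lower and 10.3% higher of all genes.

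Of 17 cyclins and CDK inhibitors of G1, *Cdk6* was called lower and *Ccne2* higher, 5.88% each way and below the 9.25% and 10.3% of all genes. *Cdk6*, which encodes a kinase of the step from G1 to S phase, was at 66.4, 59.7, 21.5 and 65.9 CPM in the WT(ND) mice and 13.0, 16.7, 15.7 and 36.0 CPM in the knockout mice, so that WT(ND) replicate 3 and knockout replicate 4 overlapped. Without both mice the adjusted p of edgeR was 1.05e-08, against 0.0104 with them. In the 8 ND mice alone the adjusted p of edgeR was 0.0899, so *Cdk6* was not called. Of 22 immediate early and NR4A genes, *Klf4* was called lower and *Dusp1*, a phosphatase of MAP kinases, higher, by -0.54 and 0.99 on the log2 scale. That is 4.55% each way, also below the shares of all genes.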
